A study of Homo sapiens with 9 samples.

Results

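Deubiquitinases of the ubiquitin-specific protease (USP), ovarian tumour protease (OTU) and ubiquitin C-terminal hydrolase (UCH) families were examined in HCT116 cells, a human colorectal carcinoma line, in which the catalytic centre of the ubiquitin ligase HUWE1 had been edited. The genes were chosen by symbol alone, as those named USP, OTUB, OTUD or UCHL followed by a number, without use of any measured value. Of the 11350 genes with counts, 54 were members, namely 44 USP, 8 OTU and 2 UCH genes. Genes of these families without a row, UCHL1 among them, were not analysed here.

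Polyadenylated RNA was sequenced in parental HCT116 cells (HUWE1-P) and in a pair of knock-in lines, with 3 untreated libraries a line. In HUWE1-WT cells the catalytic cysteine of HUWE1 was exchanged for cysteine, which serves as the control of the editing, and in HUWE1-CS cells it was exchanged for serine. Both edited lines also carried a blasticidin resistance cassette joined to HUWE1 through a P2A peptide, and were grown from single cell clones after selection with puromycin and blasticidin. Parental cells carried no such cassette, so the comparison of HUWE1-CS with HUWE1-WT cells is the one in which cassette and selection were shared. How many clones stand behind the 3 replicates of a line was not stated, and properties of a clone cannot be told apart from the serine exchange. The p-values therefore measure the spread between these libraries.

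Ubiquitin is joined to proteins by a cascade of E1, E2 and E3 enzymes, of which HUWE1 is a HECT-type E3, and deubiquitinases cut it off again. USP enzymes are the largest family and often recognise particular substrates through extra domains, OTU enzymes tend to prefer particular chain linkages, and UCH enzymes favour small ubiquitin adducts. Most of them are cysteine proteases, and several act in complexes such as the proteasome, the SAGA transcription coactivator or the spliceosome. RNA counts do not measure the amount or the activity of these enzymes.

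The libraries held between 1610984 and 2060349 counts, so that 3 counts, taken as the floor, corresponded to 1.45 to 1.86 CPM (counts scaled to the library total, normalized by TMM). HUWE1 itself lay at 522 to 561 CPM in HUWE1-P, 453 to 498 CPM in HUWE1-WT and 323 to 345 CPM in HUWE1-CS libraries. The 3 ranges did not overlap, and HUWE1-CS cells were lower than HUWE1-P cells by a log2 fold change of -0.69 ± 0.06 (SE, edgeR quasi-likelihood test, adjusted p = 1.06e-15) and than HUWE1-WT cells by -0.48 ± 0.07 (adjusted p = 4.68e-09). These counts do not show which codon a library carried. Of 10 markers of intestinal epithelium 7 had a row, EPCAM, KRT8, KRT18, KRT19, CDH1, CDX2 and CLDN7, with summed levels of 4281 to 4410 CPM in HUWE1-P, 4293 to 4717 in HUWE1-WT and 3915 to 4297 in HUWE1-CS libraries. Of these, 5 were called in both comparisons with HUWE1-CS cells (71.4% in each, beside 17% and 15.5% of all genes). CDH1, CLDN7 and EPCAM were higher (log2 fold changes of 0.24 to 0.54) and KRT8 and KRT18 lower (-0.37 to -0.26). CDX2 and KRT19 were not called. All HUWE1-CS libraries of CDX2 lay above all controls, and those of KRT19 overlapped with controls. Of 7 fibroblast, 5 leukocyte and 3 endothelial markers only COL1A1 had a row, at 19.2 to 24.7 CPM in HUWE1-P, 18 to 25.6 in HUWE1-WT and 8.71 to 14.8 in HUWE1-CS libraries. COL1A1 was called lower in HUWE1-CS cells, by log2 fold changes of -0.96 and -0.88 against HUWE1-P and HUWE1-WT cells (edgeR adjusted p = 9.01e-04 and 0.00346). The part of these markers in the results was not tested. In bulk RNA, fewer cells with a transcript and less of it per cell cannot be told apart.

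Summed over the family, the 54 genes held overlapping parts of the RNA in the 3 lines. They took 0.389% to 0.419% of the counts in HUWE1-P, 0.398% to 0.409% in HUWE1-WT and 0.375% to 0.40% in HUWE1-CS libraries. Summed levels were 3865 to 4157 CPM in HUWE1-P, 3969 to 4028 CPM in HUWE1-WT and 3830 to 4015 CPM in HUWE1-CS libraries. The median over members of the log2 fold change was -0.04 for HUWE1-CS against HUWE1-P and -0.00 for HUWE1-CS against HUWE1-WT cells, beside -0.01 and -0.00 over all genes.

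Per kilobase of transcript, levels of the members spanned from 74.9 CPM per kb for USP22, the deubiquitinase of the SAGA complex, to 0.500 CPM per kb for USP6, as means over 9 libraries. USP10, which acts on p53 and partners with G3BP1, and USP5, which takes apart free ubiquitin chains, followed at 70.2 and 68.1 CPM per kb, and USP39 and OTUB1 at 67.1 and 67.0 CPM per kb. Over the 9 libraries, ranges of these 5 genes overlapped, so that their order by this mean is not resolved. OTUB1 stood at the top in HUWE1-CS cells, at 82.5 ± 4.7 CPM per kb (SD, n = 3), and below USP22, USP10, USP5 and USP39 in HUWE1-WT cells, at 55.5 ± 4.4. Within HUWE1-CS and within HUWE1-WT libraries, the range of OTUB1 did not overlap with those of USP22, USP10, USP5 and USP39. Annotated transcript lengths entered these values and were not measured here. A mean of under 20 counts was found for 8 members, OTUD1, USP2, USP6, USP18, USP27X, USP30, USP35 and USP43, and single counts weigh heavily in them. USP6 is nearly identical in sequence to USP32 over long stretches, and reads of the pair may have been split in counting.

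**Figure D1:**
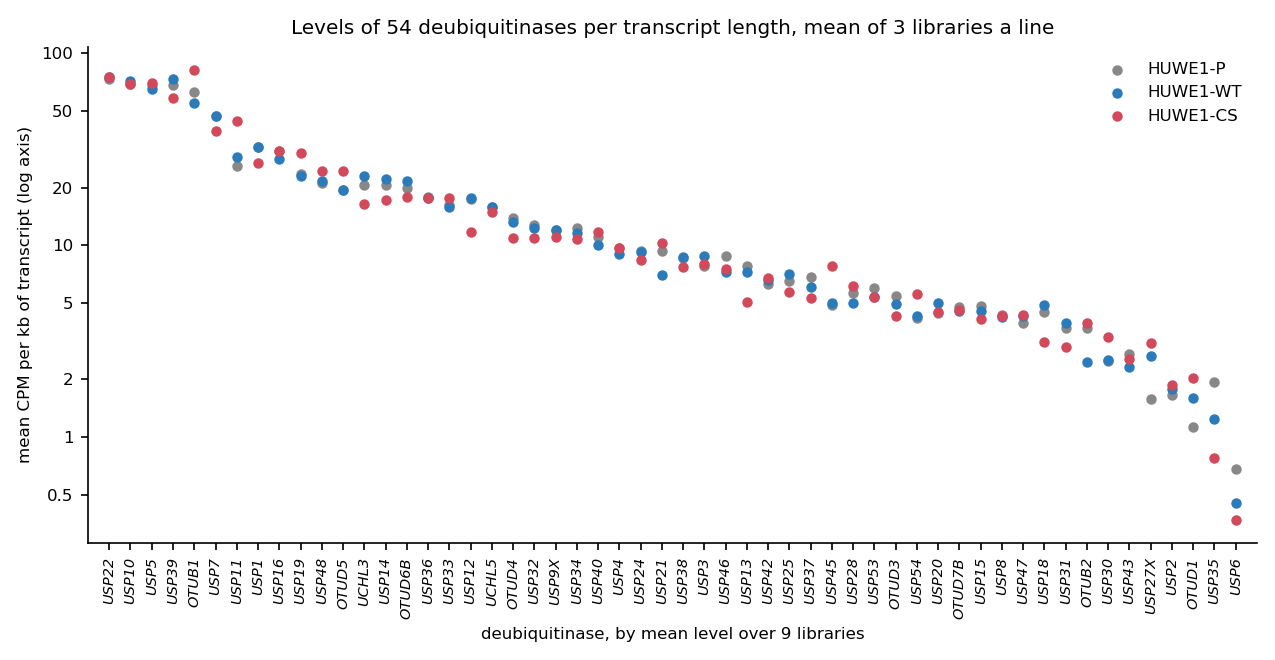
Mean level of each of the 54 deubiquitinases per kb of transcript (CPM per kb, log axis), ordered by the mean over 9 libraries, with 1 point for each line (mean of 3 libraries). Points of the 3 lines lie close together along most of the order, from USP22 at 74.9 to USP6 at 0.500 CPM per kb, and part at genes such as OTUB1, USP11, USP12, USP13 and USP45.

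Whether the edit went along with changed RNA of single deubiquitinases was tested with edgeR over all 11350 genes, and genes were called at a false discovery rate (FDR) of at most 0.01. Against HUWE1-P cells, 9 of 54 members were called (16.7%), beside 17% of all genes. OTUB1, USP11, USP19 and USP45 were higher in HUWE1-CS cells, and OTUD4, USP7, USP12, USP13 and USP35 were lower, beside 8.46% and 8.58% of all genes. Against HUWE1-WT cells, 9 members were called again (16.7%), beside 15.5% of all genes. The same 4 genes were higher, beside 7.42% of all genes, and USP7, USP12, USP13, USP14 and USP39 were lower, beside 8.08%. The share of called deubiquitinases was thus near that of all genes in both comparisons. Both comparisons use the same HUWE1-CS libraries, and 7 members (13%) were called in both, OTUB1, USP7, USP11, USP12, USP13, USP19 and USP45. The share of all genes called in both is not given here, so this 13% has no matching background. At an FDR of at most 0.05, 15 members (27.8%) were called against HUWE1-P and 13 (24.1%) against HUWE1-WT cells, beside 26.4% and 24.4% of all genes. An unadjusted p under 0.05 was found for 21 (38.9%) and 18 members (33.3%), beside 36.1% and 35% of all genes.

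With DESeq2 in place of edgeR, 3 members were called against HUWE1-P cells, USP11, USP12 and USP13 (5.56%), beside 9.59% of all genes. Against HUWE1-WT cells DESeq2 called 4, OTUB1, USP11, USP12 and USP19 (7.41%), beside 8.79% of all genes. Between the control lines, HUWE1-WT against HUWE1-P, edgeR called 0 members, beside 0.0617% of all genes, and DESeq2 and limma-voom also called 0. An unadjusted p under 0.05 was found there for 2 members (3.70%), beside 5.54% of all genes.

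**Figure D2:**
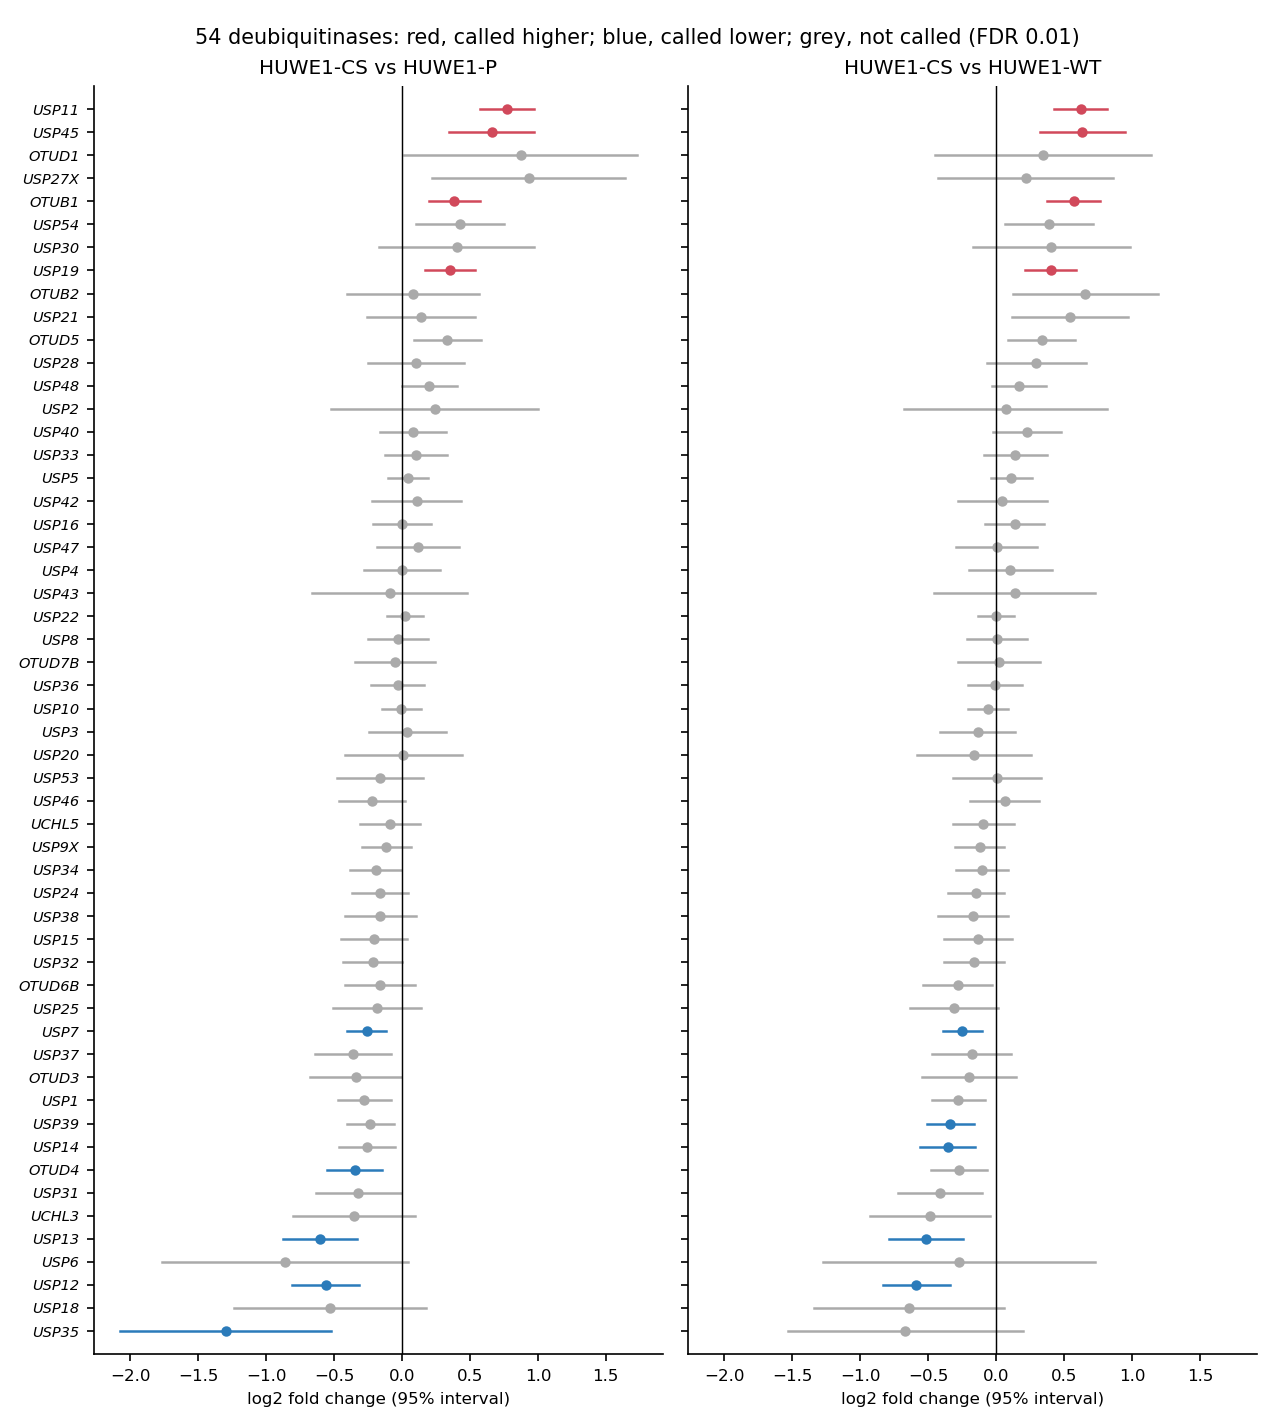
Log2 fold change with its 95% interval (edgeR) for each of the 54 deubiquitinases in HUWE1-CS against HUWE1-P (left) and against HUWE1-WT cells (right), ordered by the mean of both; red and blue mark members called higher or lower at an FDR of at most 0.01, grey those not called. USP11 and USP45 are at the top and called on both sides, most intervals cross or come near 0, and USP35 at the bottom has a wide interval.

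USP11, a nuclear enzyme that acts on the homologous recombination proteins BRCA2 and PALB2, had the highest fold change of all called members against HUWE1-P cells. The gene (Entrez 8237) lies on the X chromosome (GRCh37 chrX:47092265-47107727, plus strand), as HUWE1 does. It was measured at 73.2, 90.9 and 84.3 CPM in HUWE1-P, 93.9, 87.8 and 95.4 CPM in HUWE1-WT, and 129, 156 and 141 CPM in HUWE1-CS libraries. All 3 HUWE1-CS libraries lay above all 6 controls, and the control lines overlapped. USP11 rose 1.71-fold against HUWE1-P cells, with a log2 fold change of 0.77 ± 0.10 (SE, edgeR, adjusted p = 3.97e-10), and 1.54-fold against HUWE1-WT cells, with 0.62 ± 0.10 (adjusted p = 2.07e-07). Both calls were kept under all 19 alternatives run. Its 10 nearest genes with a row had median log2 fold changes of -0.03 and -0.06 in the same comparisons.

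USP45, which acts on the nucleotide excision repair nuclease subunit ERCC1, came next among called members against HUWE1-P cells. The gene (Entrez 85015) lies on chromosome 6 (GRCh37 chr6:99880201-99969604, minus strand). It gave 27.9, 28.6 and 29.9 CPM in HUWE1-P, 30.7, 23.4 and 34.3 CPM in HUWE1-WT, and 45.7, 41.4 and 49.9 CPM in HUWE1-CS libraries. HUWE1-CS libraries again lay above all controls. The rise was 1.58-fold against HUWE1-P (log2 0.66 ± 0.16, edgeR adjusted p = 6.44e-04) and 1.55-fold against HUWE1-WT cells (log2 0.63 ± 0.16, adjusted p = 0.00120). With DESeq2 it missed the limit in both comparisons (adjusted p = 0.0127 and 0.0201), as it did in edgeR against HUWE1-WT cells without HUWE1-WT replicate 2 (0.0282) or HUWE1-CS replicate 3 (0.0124). The 10 nearest genes had medians of -0.21 and -0.20.

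OTUB1, an OTU enzyme that also binds E2 enzymes and blocks them at DNA breaks without using its protease, was the only OTU gene called in both comparisons. The gene (Entrez 55611) lies on chromosome 11 (GRCh37 chr11:63753325-63769283, plus strand). It was measured at 98.7, 121 and 103 CPM in HUWE1-P, 88.1, 103 and 92.5 CPM in HUWE1-WT, and 150, 135 and 136 CPM in HUWE1-CS libraries. No HUWE1-CS library overlapped a control. The rise was 1.31-fold against HUWE1-P (log2 0.39 ± 0.09, edgeR adjusted p = 8.04e-04) and 1.48-fold against HUWE1-WT cells (log2 0.57 ± 0.10, adjusted p = 1.52e-06). The call against HUWE1-WT cells was kept under all 19 alternatives, whereas that against HUWE1-P cells missed the limit with DESeq2 (adjusted p = 0.0111) and without HUWE1-P replicate 1 (0.0136), HUWE1-P replicate 3 (0.0117) or HUWE1-CS replicate 1 (0.0130). Its 10 nearest genes had medians of 0.22 and 0.26, in the same direction. Its paralogue OTUB2 gave 15.5, 12.9 and 14.9 CPM in HUWE1-P, 10.4, 8.73 and 9.88 CPM in HUWE1-WT, and 16, 12.5 and 17.4 CPM in HUWE1-CS libraries, which lay above all HUWE1-WT libraries and overlapped with HUWE1-P. Its log2 fold change of 0.66 against HUWE1-WT cells (95% interval 0.13 to 1.19) was the highest of the 54 members there but missed the limit (edgeR adjusted p = 0.0603), and that against HUWE1-P cells was 0.08 (-0.40 to 0.56). OTUB2 had only 16 to 31 counts a library, and its exons share 644 bases with DDX24 on the opposite strand, which the library kit does not tell apart.

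USP19, which has a form anchored in the endoplasmic reticulum, gave 118, 102 and 115 CPM in HUWE1-P, 123, 104 and 97.1 CPM in HUWE1-WT, and 150, 151 and 127 CPM in HUWE1-CS libraries (Entrez 10869, GRCh37 chr3:49145479-49158371, minus strand). The lowest HUWE1-CS library stood just above the highest control, HUWE1-WT replicate 1. USP19 rose 1.28-fold against HUWE1-P (log2 0.35 ± 0.09, edgeR adjusted p = 0.00232) and 1.32-fold against HUWE1-WT cells (log2 0.40 ± 0.10, adjusted p = 6.00e-04). The first call was lost with DESeq2 (adjusted p = 0.0242) and without HUWE1-P replicate 2 (0.0285), HUWE1-CS replicate 1 (0.0211) or HUWE1-CS replicate 2 (0.0184), and the second without HUWE1-WT replicate 3 (0.0166).

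USP12, which works with the activators WDR48 and WDR20 and removes ubiquitin from histones among other substrates, fell in both comparisons. The gene (Entrez 219333) lies on chromosome 13 (GRCh37 chr13:27640293-27745948, minus strand). It was measured at 86.9, 72.4 and 70.8 CPM in HUWE1-P, 81.1, 77.4 and 74.4 CPM in HUWE1-WT, and 58.7, 44.2 and 52.3 CPM in HUWE1-CS libraries. The control lines covered the same range, and all HUWE1-CS libraries were below it. The log2 fold change was -0.56 ± 0.12 against HUWE1-P (1.47-fold lower, edgeR adjusted p = 2.17e-04) and -0.59 ± 0.12 against HUWE1-WT cells (1.5-fold lower, adjusted p = 1.20e-04). These calls were kept under all 19 alternatives. Reads of USP12 may be shared with its processed pseudogenes, and how the counting treated them was not stated. Of the related genes, USP46 was not called, with log2 fold changes of -0.22 (95% interval -0.47 to 0.02) against HUWE1-P and 0.06 (-0.19 to 0.32) against HUWE1-WT cells.

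USP13, linked to autophagy through Beclin 1 and to protein degradation at the endoplasmic reticulum, gave 70.8, 55 and 61.2 CPM in HUWE1-P, 53.9, 56.7 and 64.5 CPM in HUWE1-WT, and 40.4, 37.4 and 44.7 CPM in HUWE1-CS libraries (Entrez 8975, GRCh37 chr3:179370820-179522154, plus strand). HUWE1-CS libraries were below all controls. The log2 fold change was -0.60 ± 0.14 against HUWE1-P (1.52-fold lower, edgeR adjusted p = 2.82e-04), a call kept under all 19 alternatives, and -0.51 ± 0.14 against HUWE1-WT cells (1.43-fold lower, adjusted p = 0.00291). The second call was lost with DESeq2 (adjusted p = 0.0322), with the trend against transcript length removed (0.0115), and without HUWE1-WT replicate 3 (0.0355), HUWE1-CS replicate 1 (0.0130) or HUWE1-CS replicate 2 (0.0270). The annotation places 2462 bases of an unnamed gene model on the same strand over the exons of USP13.

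USP7, which stabilises MDM2 and p53 and is among the members with the most counts, had the smallest fold changes of the called members in both comparisons. Its levels were 264, 270 and 292 CPM in HUWE1-P, 277, 267 and 279 CPM in HUWE1-WT, and 252, 223 and 217 CPM in HUWE1-CS libraries (Entrez 7874, GRCh37 chr16:8985954-9069185, minus strand). The highest HUWE1-CS library lay just below the lowest control. The log2 fold change was -0.26 ± 0.07 against HUWE1-P (1.2-fold lower, edgeR adjusted p = 0.00402) and -0.25 ± 0.07 against HUWE1-WT cells (1.19-fold lower, adjusted p = 0.00651). With DESeq2 neither call was made (adjusted p = 0.0303 and 0.0414), nor with the trend against transcript length removed (0.0414 and 0.0324). In edgeR the call against HUWE1-P cells was also lost without HUWE1-P replicate 3 (0.0613), HUWE1-CS replicate 2 (0.0262) or HUWE1-CS replicate 3 (0.0473), and that against HUWE1-WT cells without HUWE1-WT replicate 1 (0.0184), 2 (0.0113) or 3 (0.0343), HUWE1-CS replicate 2 (0.0364) or HUWE1-CS replicate 3 (0.0644).

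**Figure D3:**
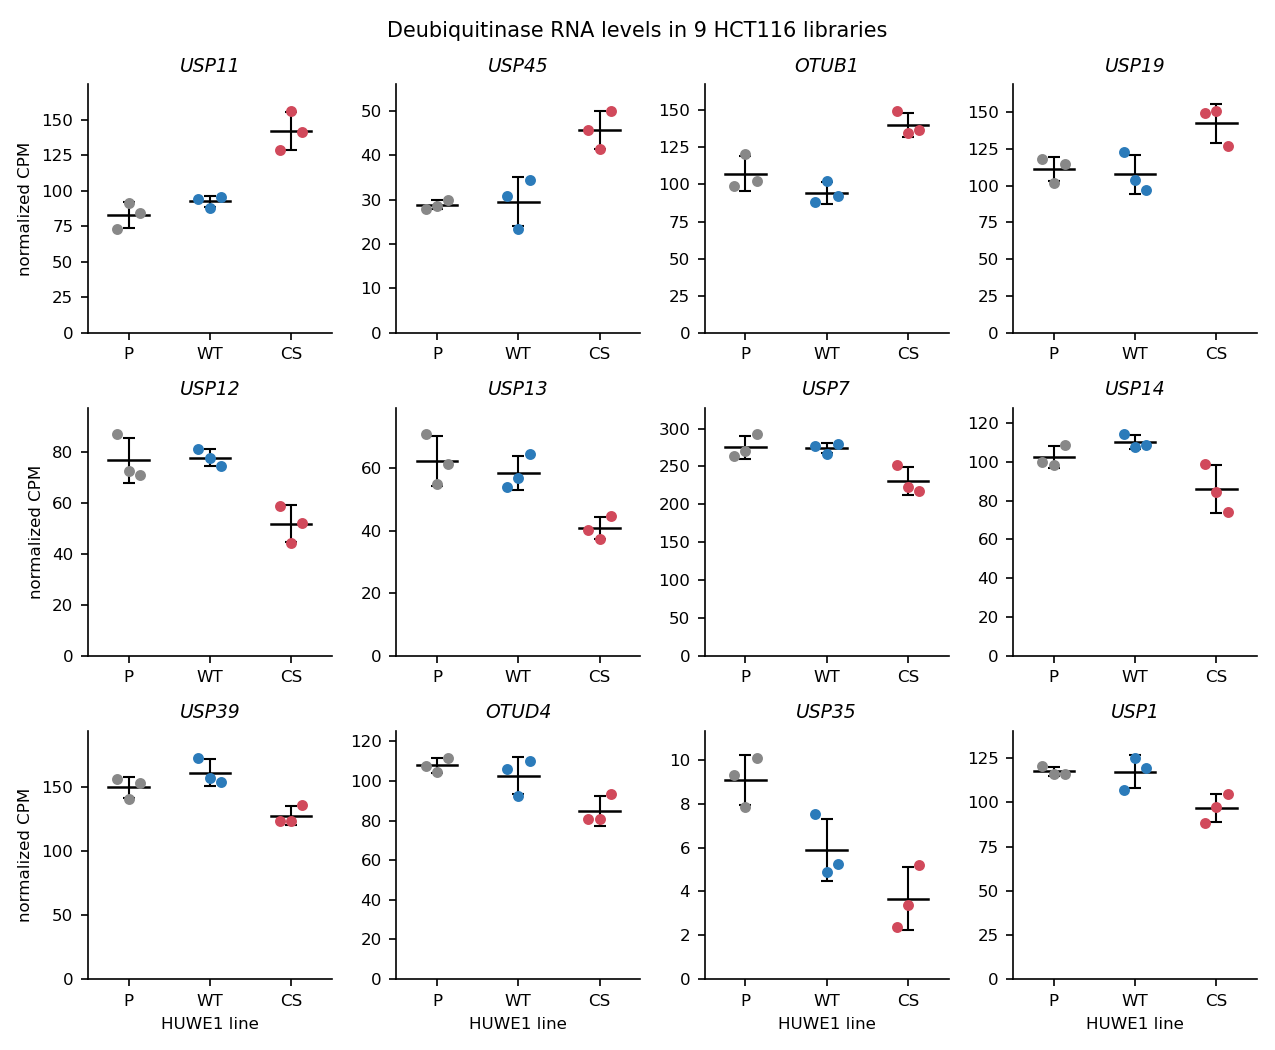
TMM-normalized CPM of the 11 called deubiquitinases and of USP1 in each of 9 libraries, by HUWE1 line (P, parental; WT; CS), with 1 point a library and the mean ± SD of 3 libraries in black; axes start at 0. USP11, USP45, OTUB1 and USP19 have all 3 CS points above the control points, USP12, USP13, USP7, USP39 and USP1 have them below, and USP14, OTUD4 and USP35 overlap with a control line.

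The 4 members with the highest and lowest fold changes among those called in both comparisons are shown with the 250 bases before their annotated start, to set the letters of these promoters beside the direction of change. Sequences are from RefSeq on GRCh38.p14, read in the direction of the gene, with capitals marking 5′-CCAAT-3′ (a site type of the factor NF-Y) and 5′-GGGCGG-3′ (the GC box, a site type of SP1) on either strand. USP11 (chrX:47232759-47233008, plus strand) and USP45 (chr6:99515424-99515673, minus strand) rose, and USP12 (chr13:27171812-27172061, minus strand) and USP13 (chr3:179652790-179653039, plus strand) fell.
USP11: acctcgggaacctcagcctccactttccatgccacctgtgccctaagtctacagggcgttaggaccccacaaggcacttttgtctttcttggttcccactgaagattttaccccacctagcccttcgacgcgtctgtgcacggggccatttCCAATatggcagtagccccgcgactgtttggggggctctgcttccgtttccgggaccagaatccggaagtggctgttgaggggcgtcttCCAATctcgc
USP45: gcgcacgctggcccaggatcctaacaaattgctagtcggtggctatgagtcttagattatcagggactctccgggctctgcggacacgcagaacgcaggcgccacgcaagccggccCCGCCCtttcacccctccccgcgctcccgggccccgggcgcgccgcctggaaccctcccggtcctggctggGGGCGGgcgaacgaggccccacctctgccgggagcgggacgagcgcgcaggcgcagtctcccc
USP12: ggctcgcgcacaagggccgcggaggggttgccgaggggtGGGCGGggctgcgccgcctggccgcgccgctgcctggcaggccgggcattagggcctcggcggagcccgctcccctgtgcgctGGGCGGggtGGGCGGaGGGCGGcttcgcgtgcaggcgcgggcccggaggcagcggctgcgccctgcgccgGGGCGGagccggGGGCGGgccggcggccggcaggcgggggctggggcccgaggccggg
USP13: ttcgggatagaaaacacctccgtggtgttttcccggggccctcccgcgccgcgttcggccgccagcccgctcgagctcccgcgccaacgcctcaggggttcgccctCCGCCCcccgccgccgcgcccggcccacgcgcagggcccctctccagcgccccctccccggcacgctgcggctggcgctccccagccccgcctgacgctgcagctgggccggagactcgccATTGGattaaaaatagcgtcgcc

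USP12 held 6 GC boxes in this window and USP11 none, while USP11 held 2 CCAAT boxes and USP12 none. USP45 held 2 GC boxes, and USP13 held 1 of each. A GC box was found in 36 of 45 members with a promoter in the table (80%), in 72.8% of 9041 promoters of genes with counts and in 44.5% of all 27305 promoters. The CCAAT box was found in 12 members (26.7%), beside 37.2% and 35.7%. Among members called in both comparisons, the GC box was found in 3 of 4 higher genes (OTUB1, USP19 and USP45) and 3 of 3 lower genes. For the CCAAT box it was 2 of 4 higher (OTUB1 and USP11) and 1 of 3 lower genes (USP13). The E-box 5′-CACGTG-3′, to which MYC with MAX binds, was searched on both strands too. It was found in 4 members, OTUB2, OTUD1, USP28 and USP32 (8.89%), beside 10.6% and 7.41%, and in 0 of the 7 members called in both comparisons. These matches describe letters in 1 window a gene and were not set against any binding data.

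The remaining called members passed the limit in 1 comparison each, and a call in 1 comparison only does not show that the comparisons differ. USP14, a deubiquitinase bound to the proteasome, gave 99.9, 98.2 and 109 CPM in HUWE1-P, 114, 107 and 109 CPM in HUWE1-WT, and 99.1, 84.5 and 74.3 CPM in HUWE1-CS libraries. HUWE1-CS replicate 1 overlapped with HUWE1-P libraries. USP14 was lower than in HUWE1-WT cells by a log2 fold change of -0.36 ± 0.10 (edgeR adjusted p = 0.00584), and the value against HUWE1-P cells was -0.26 ± 0.10 (adjusted p = 0.0559). The first call was lost in 7 of 19 alternatives, DESeq2 (0.0510) and removal of the length trend (0.0171) among them, and its adjusted p was 0.0922 without HUWE1-CS replicate 3, 0.0248 without HUWE1-CS replicate 2, and 0.0264, 0.0126 and 0.0165 without HUWE1-WT replicate 1, 2 and 3. The exons of USP14 share 110 bases with THOC1 on the opposite strand, and the library kit does not mark strand.

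USP39, a spliceosome component that resembles a USP but lacks the catalytic residues, gave 156, 141 and 153 CPM in HUWE1-P, 173, 157 and 154 CPM in HUWE1-WT, and 123, 124 and 136 CPM in HUWE1-CS libraries. All HUWE1-CS libraries were below all controls. USP39 was lower than in HUWE1-WT cells by -0.34 ± 0.09 on the log2 scale (edgeR adjusted p = 0.00186), and the value against HUWE1-P cells was -0.23 ± 0.09 (adjusted p = 0.0384). With the length trend removed the latter passed the limit (0.00942), while the former missed it with DESeq2 (0.0210) and without HUWE1-WT replicate 1 (0.0229), HUWE1-CS replicate 1 (0.0148) or HUWE1-CS replicate 2 (0.0134).

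OTUD4, a scaffold for USP7 and USP9X in the repair of alkylated DNA, was measured at 107, 104 and 112 CPM in HUWE1-P, 106, 92.2 and 110 CPM in HUWE1-WT, and 80.7, 80.5 and 93.5 CPM in HUWE1-CS libraries. The highest HUWE1-CS library overlapped with HUWE1-WT replicate 2. OTUD4 was lower than in HUWE1-P cells by -0.35 ± 0.10 on the log2 scale (edgeR adjusted p = 0.00657), and the value against HUWE1-WT cells was -0.27 ± 0.10 (adjusted p = 0.0439). The first call was lost in 7 of 19 alternatives, with adjusted p = 0.0547 in DESeq2, 0.0825 without the length trend, 0.0187, 0.0105 and 0.0414 without HUWE1-P replicate 1, 2 and 3, and 0.0388 and 0.0428 without HUWE1-CS replicate 1 and 2.

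USP35, described on mitochondria, had few counts, with 15, 14 and 21 in HUWE1-P, 13, 9 and 9 in HUWE1-WT, and 4, 6 and 9 in HUWE1-CS libraries. HUWE1-CS and HUWE1-WT libraries overlapped. Its log2 fold change was -1.30 ± 0.39 against HUWE1-P (edgeR adjusted p = 0.00800) and -0.67 against HUWE1-WT cells (95% interval -1.53 to 0.20, adjusted p = 0.279). Of 18 alternatives that tested it, 6 lost the call, with adjusted p = 0.0610 in DESeq2, 0.0122 without the length trend, 0.0217 and 0.0446 without HUWE1-P replicate 1 and 3, and 0.0588 and 0.0353 without HUWE1-CS replicate 1 and 2.

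Other members of interest for the cell cycle, MYC and the proteasome were not called in any comparison. USP1, the WDR48 partner that acts on PCNA and FANCD2, had values of 120, 116 and 116 CPM in HUWE1-P, 107, 125 and 120 CPM in HUWE1-WT, and 88.4, 97.5 and 105 CPM in HUWE1-CS libraries. HUWE1-CS libraries were below all controls, and the log2 fold changes of -0.28 ± 0.10 in each comparison missed the limit (edgeR adjusted p = 0.0251 and 0.0267). USP28, USP36 and USP37, each described to act on MYC, had log2 fold changes against HUWE1-P cells of 0.10 (95% interval -0.25 to 0.46), -0.03 (-0.23 to 0.16) and -0.36 (-0.64 to -0.08, edgeR adjusted p = 0.0483). USP37 was the lowest uncalled member with at least 20 counts on average. Against HUWE1-WT cells these 3 had 0.30 (-0.07 to 0.66), -0.01 (-0.21 to 0.19) and -0.18 (-0.47 to 0.11).

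USP54, a paralogue of USP53, was the highest uncalled member of at least 20 counts against HUWE1-P cells. It gave 28.6, 28.1 and 27.9 CPM in HUWE1-P, 32.4, 29.4 and 25 CPM in HUWE1-WT, and 40.4, 35.7 and 37.7 CPM in HUWE1-CS libraries. HUWE1-CS libraries lay above all controls, but the log2 fold changes of 0.43 ± 0.16 and 0.39 ± 0.16 missed the limit (edgeR adjusted p = 0.0401 and 0.0712). With the length trend removed the first passed (0.00772). Its exons share 1580 bases with PPP3CB-AS1 on the opposite strand.

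The UCH enzymes UCHL3, which trims ubiquitin and NEDD8 precursors, and UCHL5, which is bound to the proteasome and to the INO80 complex, were not called. UCHL3 had log2 fold changes of -0.35 (95% interval -0.80 to 0.09) against HUWE1-P and -0.48 (-0.93 to -0.04) against HUWE1-WT cells (edgeR adjusted p = 0.259 and 0.102). UCHL5 had -0.09 in both, with intervals of -0.31 to 0.13 and -0.32 to 0.13. USP22, USP10 and USP5, the members of highest level per length, had narrow intervals around 0, of -0.11 to 0.16, -0.15 to 0.14 and -0.10 to 0.19 against HUWE1-P cells, and -0.14 to 0.13, -0.21 to 0.08 and -0.04 to 0.26 against HUWE1-WT cells. USP9X, which acts on proteins such as MCL1 and can share reads with its Y-linked copy, lay at -0.12 in both (-0.30 to 0.06 in each).

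Without regard to the test, 12 members (22.2%) had all 3 HUWE1-CS libraries beyond all 6 controls, beside 26.3% of all genes. OTUB1, OTUD5, USP11, USP19, USP45 and USP54 lay above (11.1%), beside 12.9% of all genes, and USP1, USP7, USP12, USP13, USP31 and USP39 below (11.1%), beside 13.4%. Without HUWE1-CS replicate 3 the count was 19 (35.2%), beside 34.3% of all genes under the same omission, with 8 above and 11 below, beside 17% and 17.4%.

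Read by role, with lists typed from general knowledge, called members were found in several lists and in both directions. The lists share members, and OTUB1, USP7, USP11 and USP13 are each counted in several of them. Shares of different lists are therefore not separate results. The percentages are shares called in each single comparison, beside 17% and 15.5% of all genes against HUWE1-P and HUWE1-WT cells. Of 15 measured members of the DNA damage and replication fork list 4 were called in both comparisons (26.7%), OTUB1 and USP11 higher and USP7 and USP13 lower, and the list's median log2 fold change was -0.00 and 0.00. Of 11 members of the p53 and MDM2 list 3 were called in both (27.3%), OTUB1 and USP11 higher and USP7 lower, with medians of 0.11 and 0.07. Of 6 members listed for MYC stability only USP13 was called (16.7%), lower in both, with medians of -0.00 and -0.00. Of 10 histone and transcription members USP7 and USP12 were lower in both (20%), with medians of 0.01 and 0.02. Of 8 endosome and endoplasmic reticulum members USP19 was higher and USP13 lower in both (25%). The medians over all genes were -0.01 and -0.00.

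The remaining lists are read against the same 17% and 15.5%. Neither of the 2 proteasome-bound members was called against HUWE1-P cells and USP14 was lower against HUWE1-WT cells. Of 3 mitochondrial members USP35 was lower against HUWE1-P cells. Of 11 members in NF-kB and innate immunity OTUB1 was higher in both comparisons and OTUD4 lower against HUWE1-P cells (18.2% and 9.09% called). Of 6 members in WNT and TGF-beta signalling only USP11 was called, higher in both (16.7%). Of 3 spliceosome members USP39 was lower against HUWE1-WT cells.

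Members with long transcripts had lower fold changes, as long genes did in the whole table. The median transcript length was 5031 bases over members and 3342 bases over all genes with an annotated length. The 27 members above the former had median log2 fold changes of -0.16 and -0.12 against HUWE1-P and HUWE1-WT cells, and the other 27 had 0.04 and 0.14. Over all genes in 5 length bins of equal size, the median went from 0.13 in the shortest to -0.12 in the longest bin against HUWE1-P cells, from 0.12 to -0.08 against HUWE1-WT cells, and from 0.03 to -0.05 between the control lines. With this trend removed the members' medians were 0.02 and 0.06, and 8 and 6 members were called (14.8% and 11.1%), beside 16.6% and 15.6% of all genes. USP7, OTUD4 and USP35 lost their call against HUWE1-P cells and USP7, USP13 and USP14 against HUWE1-WT cells, while USP39 and USP54 gained one against HUWE1-P cells.

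**Figure D4:**
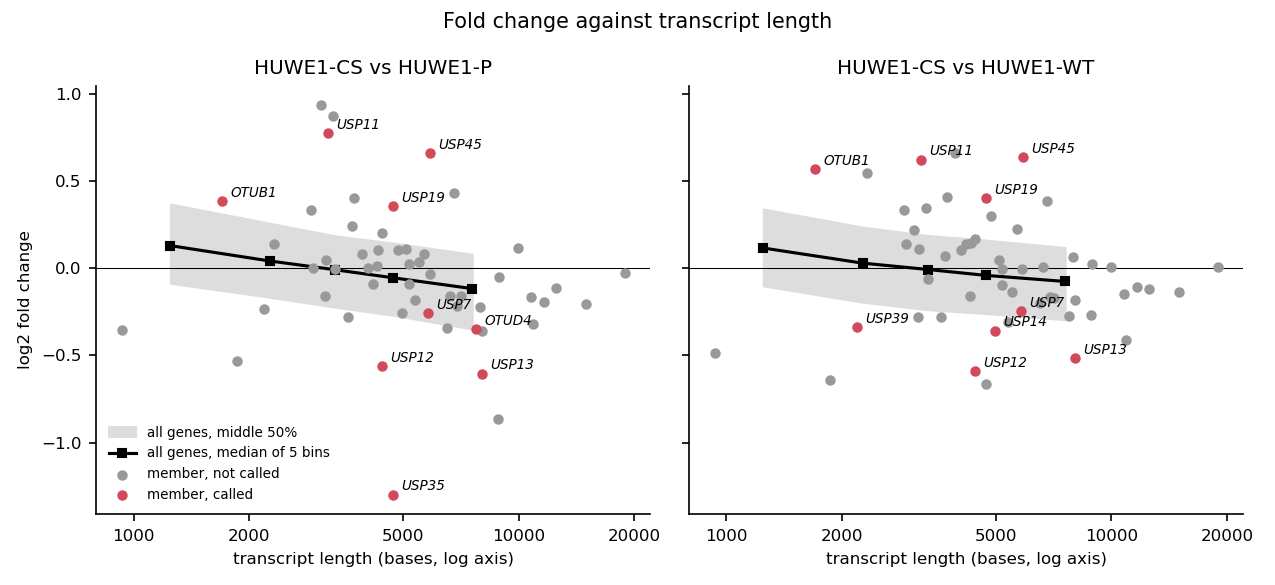
Log2 fold change against annotated transcript length (bases, log axis) for the 54 deubiquitinases in HUWE1-CS against HUWE1-P (left) and HUWE1-WT cells (right), red where called at an FDR of at most 0.01; black squares and the grey band give the median and the middle 50% of all genes in 5 length bins. The medians of all genes go from 0.13 to -0.12 on the left, and USP11, USP45, OTUB1 and USP19 lie above the band on both sides.

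Paralogues were set beside each other within each library, as log2 ratios of their CPM, for 15 pairs in which both genes had a row. USP11 and USP15, close relatives with the same domain layout, differed by -0.23 to 0.43 in HUWE1-P, 0.16 to 0.60 in HUWE1-WT and 1.08 to 1.42 in HUWE1-CS libraries. The ratio of USP4 to USP11 was -1.43 to -0.86 in HUWE1-P, -1.47 to -1.24 in HUWE1-WT and -2.08 to -1.59 in HUWE1-CS libraries. In these 2 pairs, which share USP11, HUWE1-CS libraries did not overlap with the 6 controls (exact permutation test, two-sided, p = 0.0238, the smallest it can give, and 0.179 after adjustment over 15 pairs). No pair passed 0.05 after adjustment. With p no lower than 0.0238, 1 or 2 pairs could not have passed it over 15 pairs, so the adjusted values decide nothing. The test took HUWE1-P and HUWE1-WT libraries as a single group, although they are different lines, and its p describes these libraries only. USP11 was already called in these data, and the share of non-overlapping pairs among all gene pairs was not determined. USP4 itself had log2 fold changes of -0.00 (95% interval -0.28 to 0.28) and 0.10 (-0.20 to 0.41), and USP15 of -0.21 (-0.45 to 0.04) and -0.13 (-0.38 to 0.11), against HUWE1-P and HUWE1-WT cells. USP16, the relative of USP45, had -0.00 (-0.21 to 0.21) and 0.14 (-0.08 to 0.35).

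Genes that make the substrate of deubiquitinases were measured beside them. The ubiquitin genes UBB and RPS27A rose in both comparisons, and the E1 enzymes UBA1 and UBA6 were not called. UBB, which encodes a chain of fused ubiquitin units, gave 1348, 1342 and 1307 CPM in HUWE1-P, 1295, 1456 and 1483 CPM in HUWE1-WT, and 1747, 1803 and 1724 CPM in HUWE1-CS libraries. HUWE1-CS libraries lay above all controls, with log2 fold changes of 0.40 ± 0.05 (edgeR adjusted p = 3.56e-09) and 0.32 ± 0.05 (adjusted p = 2.12e-06). RPS27A, in which ubiquitin is fused to a ribosomal protein, gave 403, 388 and 374 CPM in HUWE1-P, 337, 429 and 380 CPM in HUWE1-WT, and 438, 455 and 481 CPM in HUWE1-CS libraries. HUWE1-CS libraries again lay above all controls, with log2 fold changes of 0.24 ± 0.07 (edgeR adjusted p = 0.00424) and 0.26 ± 0.07 (adjusted p = 0.00184). The transcripts of UBB and RPS27A, of 933 and 785 bases, fall in the shortest length bin.

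**Figure D5:**
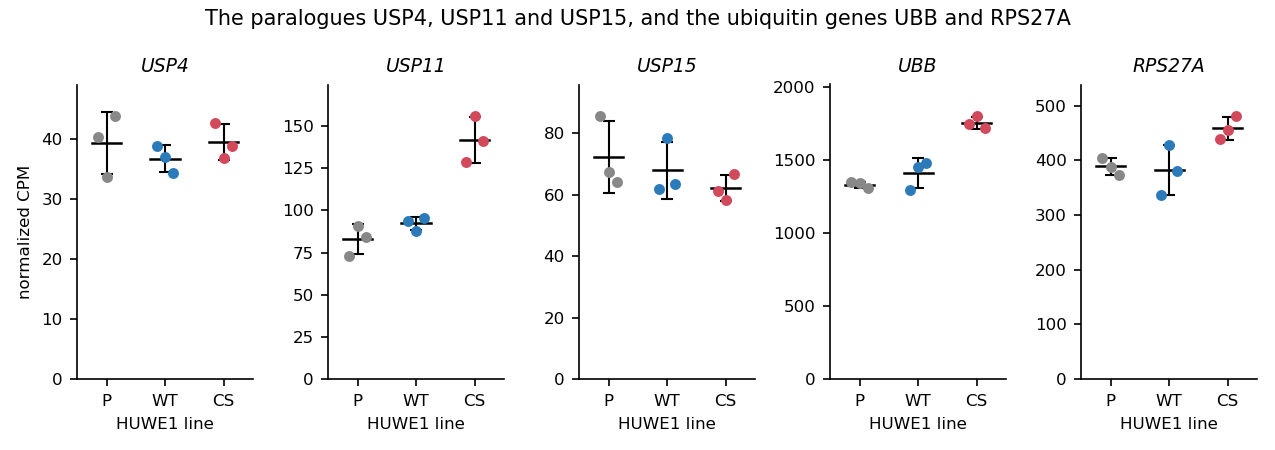
TMM-normalized CPM of the paralogues USP4, USP11 and USP15 and of the ubiquitin genes UBB and RPS27A in each of 9 libraries, by HUWE1 line (P, parental; WT; CS), with the mean ± SD of 3 libraries in black; axes start at 0. USP4 overlaps between lines at about the same level, USP11 has CS points of 129 to 156 CPM above all controls, and the CS points of both ubiquitin genes lie above all control points.

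A list of deubiquitinases of other families and of their relatives had 29 measured genes, not all of which are established to cut ubiquitin. Against HUWE1-P cells 2 were called (6.90%, beside 17% of all genes), EIF3F higher and MINDY2 lower. Against HUWE1-WT cells 3 were called (10.3%, beside 15.5% of all genes). EIF3F and MPND were higher there, and COPS5, the catalytic subunit of the COP9 signalosome, was lower. EIF3F, a translation initiation factor subunit with a related fold, had log2 fold changes of 0.37 ± 0.08 and 0.43 ± 0.08 (edgeR adjusted p = 5.29e-05 and 4.48e-06), and MINDY2 had -0.87 ± 0.26 against HUWE1-P cells (adjusted p = 0.00711). MPND and COPS5 had 0.78 ± 0.24 and -0.34 ± 0.09 against HUWE1-WT cells (adjusted p = 0.00901 and 0.00361). Of 25 measured partners of deubiquitinases 3 (12%) and 2 (8%) were called, beside the same shares of all genes. ATXN7L3B, a relative of the SAGA subunit ATXN7L3, was higher in both comparisons, at 0.40 ± 0.10 and 0.48 ± 0.10 (adjusted p = 8.78e-04 and 9.67e-05). SHMT2, which binds the BRISC complex, was lower in both, at -0.24 ± 0.07 and -0.38 ± 0.07 (adjusted p = 0.00704 and 1.22e-05), and ASXL1, the partner of BAP1, was lower against HUWE1-P cells, at -0.47 ± 0.11 (adjusted p = 4.08e-04). WDR48 and WDR20, the partners of USP12, were not called. Of 9 SUMO and NEDD8 proteases edgeR called 0 in each comparison, beside 17% and 15.5% of all genes, with an unadjusted p under 0.05 for 2 of them against HUWE1-P and 2 against HUWE1-WT cells, and DESeq2 and limma-voom also called 0.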

How the data were processed

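RNA-seq was analysed in HUWE1-P, HUWE1-WT and HUWE1-CS lines of HCT116 cells, with 3 libraries of each, grouped by their labels. The kit used on poly(A) RNA does not mark strand, and reads were single-end. Per the submitters' processing notes and the study's methods, reads were demultiplexed with bcl2fastq 2.20, trimmed with Skewer, mapped to hg19 with STAR 2.5.4 and compared with edgeR 3.26.8. The authors deposited raw counts per gene, without normalization, for 11350 genes. The counting tool, its annotation and its filter are not given in the sources used here. The deposited comparison tables (log2 fold change, mean log2 CPM, F, p and FDR) were not used.

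Counts were normalized by TMM and tested with edgeR 4.0.16 (glmQLFit with the earlier estimator, and glmQLFTest) over all 9 libraries with line as the only term, with Benjamini-Hochberg adjustment over all genes and a limit of 0.01. No gene was removed by filterByExpr. Values are CPM, with errors as SE of the fit or SD of 3 libraries. Library totals limit the precision of genes with few counts. Replicates differed by more than sampling noise (chi-square per degree of freedom 1.16 to 1.65), so none was treated as a duplicate. Positions and lengths came from GENCODE on GRCh37 for 11114 genes. Promoters of 45 of 54 members were found in the RefSeq table for GRCh38.p14, taking the window at the outermost RefSeq start, or the first one listed. The fit was tested on simulated counts.

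The members were taken by symbol alone, but the choice of this family and of the gene lists was made with earlier results of these data known. Genes named are all called members, those with the 3 highest CPM, the highest and lowest uncalled member of at least 20 counts, a fixed set of well-known members, and called genes of the other lists. USP4, USP15, USP16, USP46, OTUB2, WDR20 and WDR48 were named as relatives or partners after their values were seen, as were UBA1, UBA6 and the members counted in groups. Alternatives were DESeq2 1.42.0, limma-voom (limma 3.58.1), the edgeR version 4 estimator, a robust fit, RLE factors, total counts, a minimum of 10 counts, fits of only the lines compared, a replicate block, removal of the length trend, an FDR of 0.05 and omission of each library. Some genes of the lists are not reported here.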

Additional observations from a re-analysis of the deposited data

How the results depend on the processing

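Directions of all named members and of HUWE1 were kept in every alternative run in which the gene was called in the reported fit. Against HUWE1-P cells, the number of members called was 9 as reported, 15 at an FDR of at most 0.05 (7 higher and 8 lower) and 3 with DESeq2, and between 5 and 9 when single libraries were omitted (9 omissions). It was 5 without HUWE1-P replicate 3, HUWE1-CS replicate 1 or HUWE1-CS replicate 2. Against HUWE1-WT cells it was 9 as reported, 4 with DESeq2, and between 5 and 9 when single libraries were omitted, with 5 without HUWE1-WT replicate 3 or HUWE1-CS replicate 2. The count of members beyond both control lines ranged from 12 to 19 when single libraries were omitted, with 19 (35.2%, beside 34.3% of all genes) without HUWE1-CS replicate 3. In HUWE1-WT against HUWE1-P cells, 0 members were called under every alternative. Where DESeq2 called fewer members it also called fewer of all genes, and the cause was not tested.

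Deviations of samples with the same replicate number had correlations of -0.02 to 0.058, beside -0.065 to 0.033 for different numbers. The highest value was thus between samples of the same number, but all were small, and the numbers were not taken as pairs. With the replicate number as a block, 9, 9 and 0 members were called in the 3 comparisons, as without it, and HUWE1 had log2 fold changes of -0.69, -0.48 and -0.21. At totals near 1610984 to 2060349 counts, members of under 20 counts on average had wide intervals, and a change in them may not be detectable at this depth.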
